A study of Mus musculus with 3 samples.

Results

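A set of 9 genes of inhibitory signalling in activated T cells were followed through 3 RNA sequencing libraries of mouse T helper 1 (Th1) cells. They were taken by symbol from a fixed list and made up 9 of the 50600 genes counted. Ctla4, Pdcd1, Btla, Lag3, Tigit, Havcr2 and Cd160 encode 7 receptors. Cd200 and Cd274 encode 2 membrane ligands that engage inhibitory receptors on another cell, so the set holds receptors and ligands. All 3 libraries belong to 1 group: primary T helper 1 cells of strain C57BL/6NJ, numbered as biological replicates 1, 2 and 3, with no genetic change or drug named in the labels. The file headers place the cells 48 h into a course of Th1 and Th2 samples. Sex was not collected, age is unknown and 1 donor identifier covers all 3 libraries. Separate animals or cultures are not stated anywhere in the labels, so p-values between libraries measure only a spread that may be technical. The other arms and times of the course were not analysed here, and the data therefore give levels, their order and the spread between libraries.

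A T cell becomes activated when its antigen receptor and the costimulatory receptor CD28 are engaged together, and inhibitory receptors then reach its surface and restrain it. CTLA-4 competes with CD28 for CD80 and CD86. PD-1, BTLA and TIGIT carry tyrosine motifs in their cytoplasmic tails, and PD-1 and BTLA recruit the phosphatases SHP-1 and SHP-2 through them. LAG-3 binds MHC class II molecules, as CD4 does. PD-L1, the product of Cd274, is a ligand of PD-1, and CD200 is the ligand of the CD200 receptor of myeloid and some lymphoid cells.

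Depth set what each library could show. The libraries held 4742025, 50627 and 3543816 counts in replicates 1, 2 and 3. Where a gene had no count, up to 3 counts remain possible, worth 0.633 CPM (counts scaled to the library total) in replicate 1, as much as 59.3 CPM in replicate 2, and 0.847 CPM in the third library. Levels below are TPM, counts per gene length scaled to a fixed sum, with exact Poisson 95% intervals that cover counting error only. Genes whose exons overlap those of an opposite-strand gene took 52.7%, 57.8% and 72.2% of the counts in replicates 1, 2 and 3. Counts were made for 1 strand setting and the library kit is not given in the sources used here. Genes covered for 90% or more by opposite-strand exons were higher in replicate 3 than in replicate 1 relative to library totals, at a median log2 ratio of 0.78, and genes without such exons were lower, at -0.84. If the kit marks the strand opposite to the setting, a count given to a gene would not be from its own transcripts, and no level or count of 0 below could be read as that gene's expression. Which strand the counts hold was not tested, and all levels are given under that limit. All 8 CD4 T cell markers, led by Cd5, Trac and Cd4, were at 1 TPM or more in each library, with Cd4 itself at 251, 154 and 108 TPM in replicates 1, 2 and 3. Cd8a had no count in any library, and the other CD8 T cell marker, Cd8b1, had 21, 1 and 13 counts (6.61, 27.8 and 4.45 TPM). Among 6 Th1 markers 4 were at 1 TPM or more throughout. Il12rb2, 1 of these 4, lies 40.0% under opposite-strand exons and had 92, 2 and 115 counts. Tbx21, the gene of the Th1 factor T-bet, stood at 98.0, 99.6 and 52.0 TPM and the cytokine gene Ifng at 54.1, 63.8 and 17.2 TPM, while Cxcr3 had 4, 0 and 2 counts. The 4 regulatory T cell markers summed to 260, 293 and 181 TPM, nearly all of it from Il2ra and Foxp3. The other markers of this list were low, with Ikzf2 at 1.53, 3.56 and 0.655 TPM and Ikzf4 at 3.13, 0 and 0.425 TPM. Il2ra, which activated T cells also express, stood at 184, 217 and 86.3 TPM, and Foxp3, the regulatory T cell factor, at 71.0, 72.5 and 93.4 TPM with 14.8% opposite-strand cover. Regulatory T cells are known to express Ctla4 and Tigit, and the part of such cells in these levels was not tested. The 4 follicular helper markers summed to 31.9 TPM in replicate 1 and 14.1 TPM in replicate 3. Most of it came from Sh2d1a (25.6 and 10.7 TPM), 26.6% of which lies under opposite-strand exons. Among the B cell markers, Ms4a1 and Pax5 had no count, and the summed level of the list was 104, 21.9 and 54.6 TPM, most of it from Ighm. Of the 6 myeloid markers, Lyz2, Itgam, Adgre1 and Cd14 had no count. The summed myeloid level was 109, 84.5 and 169 TPM, nearly all of it from Csf1r, 17.8% of which lies under opposite-strand exons. The dendritic, natural killer, and NKT and gamma delta T cell lists summed to 0 to 9.94 TPM in each library.

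The exons of 8 of the 9 genes overlap none on the opposite strand. The exception is Cd160 (chromosome 3, 96798763 to 96829351, minus strand, mm10), which at its 5′ end shares 68 bp, or 2.57% of its exonic length, with Pdzk1 on the plus strand. Cd274 (chromosome 19, 29367455 to 29388095, plus strand) starts 64 bp from Plgrkt, a minus strand gene, without shared positions. Promoter windows of RefSeq (build GRCm38.p6), 250 bases before to 50 after a start, matched 8 of the 9 genes. The windows of Cd160 and Cd274 are shown because each runs into an exon of the gene that starts head to head with it. Capitals mark the bases shared by exons of Cd160 and Pdzk1 (50 bases) and the bases in an exon of Plgrkt (185 bases). The Pdzk1 exon was not marked beyond the start of Cd160, so lowercase bases of the Cd160 window may also lie in it.
Cd160, chr3:96829302-96829601, minus strand: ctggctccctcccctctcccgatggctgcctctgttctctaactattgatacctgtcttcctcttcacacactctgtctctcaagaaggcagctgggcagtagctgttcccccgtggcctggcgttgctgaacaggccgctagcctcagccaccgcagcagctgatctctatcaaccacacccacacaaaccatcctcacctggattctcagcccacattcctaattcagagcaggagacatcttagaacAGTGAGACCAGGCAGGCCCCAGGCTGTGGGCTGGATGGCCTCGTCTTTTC
Cd274, chr19:29367188-29367487, plus strand: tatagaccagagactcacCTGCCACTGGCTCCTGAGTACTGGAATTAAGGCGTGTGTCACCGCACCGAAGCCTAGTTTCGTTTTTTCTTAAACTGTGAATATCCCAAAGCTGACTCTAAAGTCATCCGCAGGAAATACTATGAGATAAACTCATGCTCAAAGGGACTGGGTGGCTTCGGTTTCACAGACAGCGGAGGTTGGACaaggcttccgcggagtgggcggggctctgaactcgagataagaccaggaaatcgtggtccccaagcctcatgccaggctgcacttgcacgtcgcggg

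The windows of Ctla4 and Pdcd1, the highest receptor genes in replicates 1 and 3, are shown with the NFAT core in capitals, since NFAT is an activator of both genes in stimulated T cells. The motif searched was GGAAA on both strands, with overlaps allowed. It occurred in 20151 of 32851 windows of 300 bases (61.3%). The Ctla4 window had 1 match and the Pdcd1 window 2 adjoining matches, all on the other strand, where they read TTTCC. The windows of Tigit and Cd274 also had 2 matches each. Those of Btla, Havcr2 and Cd200, and the Cd160 window above, had none, while a second Cd160 window had 1. An AP-1 motif (TGANTCA, both strands) was found only in the Havcr2 window among these, and in 7.81% of all windows. A match describes these letters and says nothing of binding.
Ctla4, chr1:60908775-60909074, plus strand: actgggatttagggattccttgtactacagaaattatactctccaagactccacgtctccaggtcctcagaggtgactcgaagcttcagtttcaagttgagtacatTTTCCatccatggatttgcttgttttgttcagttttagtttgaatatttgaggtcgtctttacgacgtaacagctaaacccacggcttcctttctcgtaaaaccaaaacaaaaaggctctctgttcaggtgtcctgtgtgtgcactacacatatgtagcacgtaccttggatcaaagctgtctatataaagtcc
Pdcd1, chr1:94052504-94052803, minus strand: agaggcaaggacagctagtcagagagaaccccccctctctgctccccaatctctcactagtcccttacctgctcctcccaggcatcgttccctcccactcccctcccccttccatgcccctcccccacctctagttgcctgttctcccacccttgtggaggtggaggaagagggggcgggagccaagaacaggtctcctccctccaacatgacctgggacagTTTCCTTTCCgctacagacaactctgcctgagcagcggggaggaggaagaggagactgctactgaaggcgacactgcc

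Ctla4, Pdcd1 and Btla stood high in replicates 1 and 3, while replicate 2 held only 6, 3 and 7 counts of them. Ctla4 (chromosome 1, 60887000 to 60915832, plus strand) had 839, 6 and 319 counts in replicates 1, 2 and 3. These gave 168 TPM (157 to 180), 106 TPM (39.0 to 231) and 69.5 TPM (62.0 to 77.5), a mean of 115 ± 49.9 TPM (SD, n = 3). Replicate 1 was the highest and replicate 3 the lowest, and the wide interval of replicate 2 covered both. Among 21764 protein-coding genes Ctla4 ranked 592 in replicate 1 (542 to 637 at the ends of its interval) and 929 in replicate 3 (844 to 1036). In replicate 2 its rank was known only to lie between 355 and 2466.

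Pdcd1 (chromosome 1, 94038305 to 94052553, minus strand), the gene of PD-1, had 475, 3 and 185 counts, or 115 TPM (105 to 126), 64.2 TPM (13.2 to 188) and 48.6 TPM (41.9 to 56.2). Its mean was 75.9 ± 34.7 TPM (SD, n = 3), and it ranked 898 in replicate 1 and 1274 in replicate 3 among protein-coding genes. The rank of Pdcd1 in replicate 2 was known only to lie between 454 and 4813. Btla (chromosome 16, 45224315 to 45252895, plus strand) encodes a receptor for the TNF receptor family member HVEM. It had 656, 7 and 277 counts, or 94.1 TPM (87.0 to 102), 88.7 TPM (35.7 to 183) and 43.1 TPM (38.2 to 48.5), with a mean of 75.3 ± 28.0 TPM (SD, n = 3). In both genes replicate 3 lay below replicate 1 with intervals that did not overlap, as in Ctla4.

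The other 4 receptors stood lower in the deep libraries. Tigit (chromosome 16, 43648861 to 43664184, minus strand), a receptor for the nectin-like ligand CD155, had 93 counts in replicate 1 (45.1 TPM, 36.4 to 55.3) and 38 in replicate 3 (20.02 TPM, 14.2 to 27.5). It had none in replicate 2, where its short transcript makes 3 counts worth 129 TPM. Its absence there was below detection and does not show a lower level. Lag3 (chromosome 6, 124904361 to 124911705, minus strand) had 201, 8 and 53 counts, or 44.5 TPM (38.6 to 51.1), 157 TPM (67.6 to 309) and 12.7 TPM (9.55 to 16.7). Its 3 intervals did not overlap one another, with replicate 2 the highest and replicate 3 the lowest. Its mean of 71.3 ± 75.6 TPM (SD, n = 3) was 28.6 TPM over replicates 1 and 3 alone.

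Cd160, the gene of a glycolipid-anchored receptor that also binds HVEM, had 23 counts in replicate 1 (4.07 TPM, 2.58 to 6.10) and 14 in replicate 3 (2.69 TPM, 1.47 to 4.51). Replicate 2 held 4 counts, which make 62.5 TPM (17.0 to 160) at its depth. Pdzk1, the gene that overlaps it, had 507, 7 and 673 counts and is itself 41.7% covered by exons of the other strand, mostly of Gpr89 (110, 0 and 46 counts). Havcr2 (chromosome 11, 46454935 to 46481255, plus strand), the gene of TIM-3, a receptor first described on Th1 cells, had 1, 0 and 1 counts. Its intervals reached up to 0.956 TPM in replicate 1 and 1.04 TPM in replicate 3, and in replicate 2 its 0 counts allow 45.5 TPM, the worth of 3 counts. In the deep libraries Havcr2 was thus at the edge of detection, and replicate 2 was too shallow to show it.

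Of the ligand genes, Cd200 (chromosome 16, 45382135 to 45409053, minus strand) was the highest of all 9 genes in each library. It had 1348, 17 and 530 counts, or 190 TPM (180 to 200), 211 TPM (123 to 338) and 81.0 TPM (74.2 to 88.2), with a mean of 161 ± 69.8 TPM (SD, n = 3). It ranked 503, 396 and 814 among protein-coding genes and made up 26.8%, 28.7% and 26.6% of the summed TPM of the 9 genes. The 3 genes nearest to it in level, by distance in log2(TPM + 1) over the 3 libraries among 16955 protein-coding genes without opposite-strand exons, were Rrm2 (distance 0.068), Il2ra (0.11) and Tars (0.13). Cd274 had 356, 4 and 186 counts, or 45.9 TPM (41.3 to 50.9), 45.6 TPM (12.4 to 117) and 26.1 TPM (22.4 to 30.1). Its mean of 39.2 ± 11.4 TPM (SD, n = 3) had a spread of 29.0% of the mean, against 37.2% to 148% in the other 8 genes. These spreads include the few counts of replicate 2. Replicate 1 over replicate 3 in TPM was 1.76-fold in Cd274, 1.51-fold in Cd160, 0.921-fold in Havcr2 and 2.18-fold to 3.49-fold in the others.

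**Figure D1:**
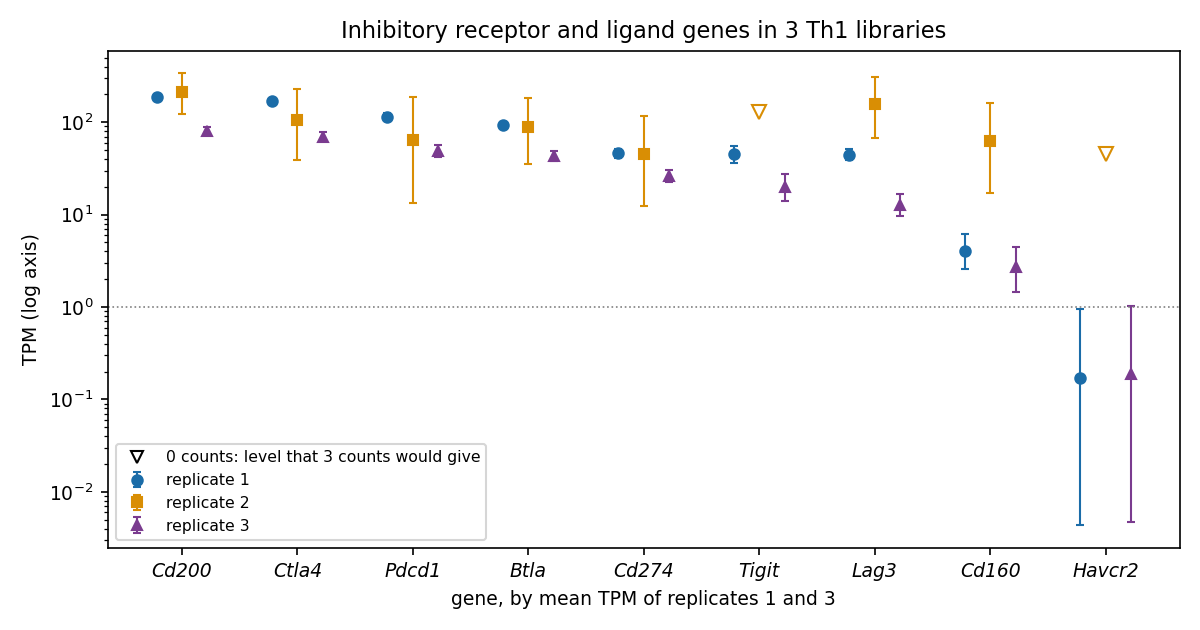
TPM of each gene on a log axis in replicates 1, 2 and 3, with exact Poisson 95% intervals; open triangles stand where a library had 0 counts, at the level 3 counts would give, and the dotted line marks 1 TPM. The points of Cd200, Ctla4, Pdcd1 and Btla stand above 40 TPM in every library. In replicate 2 the intervals of Ctla4, Pdcd1 and Btla reach down to 39.0, 13.2 and 35.7 TPM. The points of Havcr2 are below 1 TPM in replicates 1 and 3, and the 4 counts of Cd160 and the 8 counts of Lag3 lift replicate 2 above the deep libraries.

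In all, 7 of the 9 genes reached 1 TPM in every library, against 29.4% of protein-coding genes and 14.8% of all genes. In replicates 1 and 3 together 8 did, against 44.3% of protein-coding genes. The median of the 9 genes was 45.9 TPM in replicate 1 and 26.1 TPM in replicate 3, where the medians over all protein-coding genes with a count were 9.84 and 5.31 TPM. The 9 genes took 0.0842% of all counts in replicate 1, with an exact Clopper-Pearson 95% interval of 0.0816 to 0.0868. They took 0.0968% in replicate 2 (0.0716 to 0.128) and 0.0452% in replicate 3 (0.0430 to 0.0475). In bulk RNA, fewer cells that express a gene and less RNA per cell cannot be told apart.

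The order of the 9 genes was the same in replicates 1 and 3: Cd200, Ctla4, Pdcd1, Btla, Cd274, Tigit, Lag3, Cd160 and Havcr2. Of the 36 pairs of these genes, 33 had a 95% counting interval of their log2 TPM ratio that excluded 0 in replicate 1 and 34 in replicate 3, and 32 did so in both. In replicate 2 only 7 pairs did. Cd200 stood above Ctla4 by a log2 TPM ratio of 0.46 ± 0.46 (SD, n = 3), so these neighbours hardly differed beyond their spread over the 3 libraries. Their counting intervals excluded 0 in replicate 1 (0.05 to 0.30) and replicate 3 (0.02 to 0.43), but not in replicate 2 (-0.42 to 2.62). Ctla4 stood above Pdcd1 by 0.60 ± 0.11 (SD, n = 3). Pdcd1 and Btla did not differ beyond their spread, with a mean log2 TPM ratio of -0.0019 ± 0.41 (SD, n = 3). The counting interval of this ratio was 0.12 to 0.46 in replicate 1 and -0.10 to 0.45 in replicate 3. Btla stood above Cd274 by 0.91 ± 0.16 (SD, n = 3). Among Cd274, Tigit and Lag3, neighbours differed by no more than their spread, by 0.20 ± 0.25 for Cd274 over Tigit and 0.34 ± 0.45 for Tigit over Lag3 (SD, n = 2 each, replicates 1 and 3). For Tigit over Lag3 the counting interval was -0.35 to 0.38 in replicate 1 and 0.01 to 1.28 in replicate 3. Ranking by the mean over all 3 libraries instead put Lag3 above Cd274 and Cd160 above Tigit, and without replicate 2 neither held.

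The receptors were next set against the genes they compete with or bind, as log2 TPM ratios in each library. Ctla4 exceeded Cd28, its costimulatory competitor, by 2.29 (95% interval 2.13 to 2.46) in replicate 1, 1.39 (-0.51 to 3.30) in replicate 2 and 2.26 (1.99 to 2.53) in replicate 3. That is 4.90-fold, 2.63-fold and 4.79-fold in favour of Ctla4, with replicate 2 resting on 6 counts of each gene. Ctla4 also exceeded Icos, the other CD28 family costimulator, by 1.92 ± 0.27 (SD, n = 3). Tigit and Cd226, which compete for CD155 with opposite effects, had a log2 ratio of -0.38 (-0.73 to -0.04) in replicate 1 and -0.37 (-0.93 to 0.17) in replicate 3. Tigit was thus slightly below Cd226 in both, and the interval of replicate 3 held 0. Lag3 stood below Cd4, with which it shares MHC class II as a ligand, by a log2 ratio of -2.49 (-2.71 to -2.29) in replicate 1 and -3.08 (-3.51 to -2.68) in replicate 3. In replicate 2, with 8 and 15 counts, the ratio was 0.03 (-1.42 to 1.36).

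Receptor and ligand genes within each library were also compared, without knowing whether the same cells express both. Pdcd1 exceeded Cd274 by a log2 TPM ratio of 1.32 (1.12 to 1.53) in replicate 1, 0.49 (-2.28 to 3.06) in replicate 2 and 0.90 (0.60 to 1.20) in replicate 3. Btla exceeded Tnfrsf14, the gene of HVEM, by 2.96 (2.43 to 3.54) in replicate 1 and 2.10 (1.49 to 2.78) in replicate 3. Cd160 stood below Tnfrsf14, by a ratio of -1.57 (-2.42 to -0.74) in replicate 1 and -1.90 (-2.97 to -0.88) in replicate 3. Tnfrsf14 had 30, 0 and 23 counts, so replicate 2 gave only lower bounds for these pairs. Cd200 was 91.7-fold above Cd200r1 in replicate 1, and its log2 ratio was 6.52 (5.59 to 7.65). Cd200r1 had 9, 0 and 3 counts, and in replicate 3 the log2 ratio was 6.76 (5.20 to 9.04). In replicate 2 Cd200 was at least 3.47-fold higher, taking 3 counts for Cd200r1. The 9 ratios were each tested by an exact two-sided sign-flip test, which cannot go below p = 0.25 over 3 libraries or 0.50 over 2. None passed (every Benjamini-Hochberg adjusted p from this exact test was 0.50). For Ctla4 against Cd28 and Icos, and for Pdcd1 against Cd274, the direction was the same in 3 of 3 libraries. For Lag3 against Cd4 it was the same in 2 of 3.

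**Figure D2:**
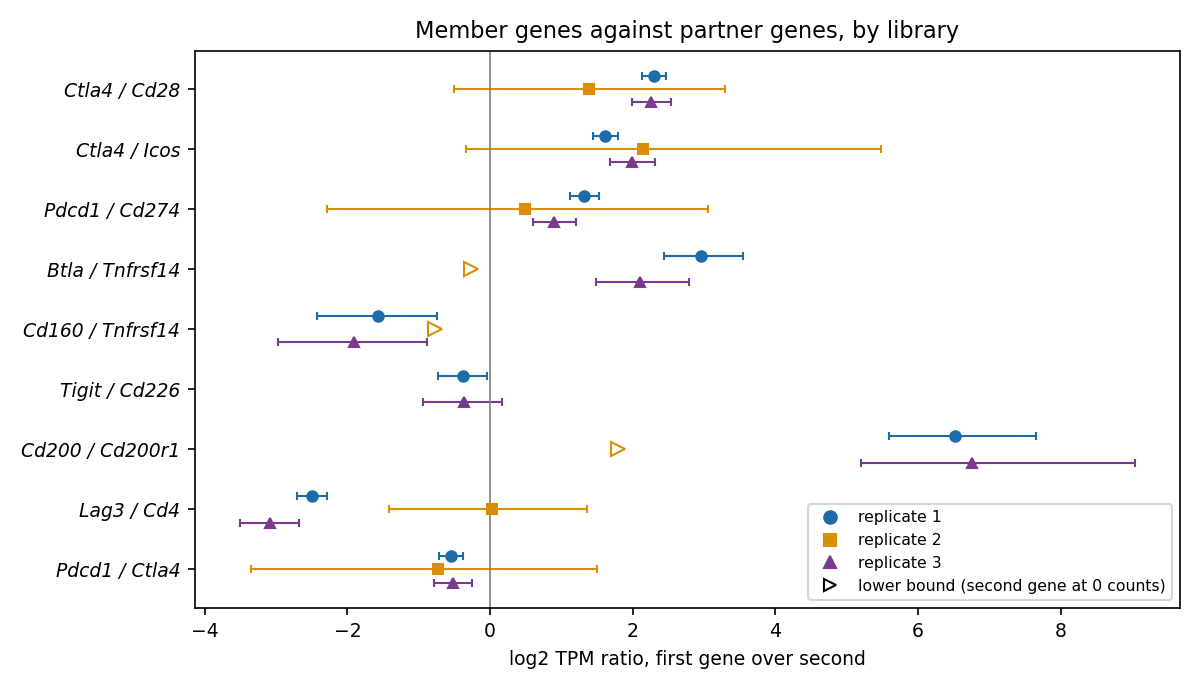
Log2 TPM ratio of the first gene over the second in each library, with exact 95% counting intervals. Open triangles are lower bounds in replicate 2, where the second gene had 0 counts. They take 3 counts for it and leave out the counting error of the first gene. No point is drawn for Tigit over Cd226 in replicate 2. Replicates 1 and 3 lie on the same side of 0 for every pair, and Cd200 over Cd200r1 is the widest gap, at 6.52 and 6.76.

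The libraries differed from each other by more than counting error in 6 of the 7 genes that passed the filter on low counts, against 63.2% of all 7406 genes tested (chi-square on TMM-scaled totals, Benjamini-Hochberg adjusted p under 0.05 over all of them). Tigit and Havcr2 did not pass the filter. This share is near the background and says little about the 9 genes. The adjusted p of this chi-square test was 5.1e-07 for Ctla4, 0.00075 for Pdcd1, 0.0033 for Btla, 4.6e-09 for Lag3, 9.0e-10 for Cd160, 3.5e-09 for Cd200 and 0.90 for Cd274. Chi-square is a rough approximation at the low counts of replicate 2, where replicates 1 and 3 predict 0.281 counts of Cd160 and 1.93 of Lag3. Its small p-values for these genes are therefore not reliable in size. The exact binomial test of replicate 2 gave adjusted p values of 0.069 for Cd160 and 0.17 for Lag3. With scaling factors taken from genes without opposite-strand exons, only Lag3 (7.3e-06) and Cd160 (2.2e-09) stayed past the threshold in the chi-square test, and Ctla4 stood at 0.27. Of all genes 38.9% were called on that scale. Without replicate 2, Ctla4, Lag3 and Cd200 were called, at adjusted p values of 0.0071, 0.00075 and 0.0036 in the chi-square test, and Cd160 was not (0.58). Without replicate 1 only Lag3 was called and Cd160 failed the filter, and without replicate 3 only Lag3 and Cd160, against 9.47%, 37.9% and 3.65% of all genes called without replicates 1, 2 and 3.

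Much of the difference lay between replicates 3 and 1. By an exact binomial test on TMM-scaled totals, 5 of the 9 genes were lower in replicate 3, against 16.3% of 18759 genes called lower and 31.8% called in either direction. They were Ctla4, Pdcd1, Btla, Lag3 and Cd200. On the TMM scale of the test their log2 ratios of replicate 3 to replicate 1 were -0.52, -0.49, -0.37, -1.05 and -0.47 in that order. Relative to library totals their log2 CPM ratios of replicate 3 to replicate 1 were -0.97 (-1.17 to -0.79) for Ctla4, -0.94 (-1.19 to -0.69) for Pdcd1, -0.82 (-1.03 to -0.62) for Btla, -1.50 (-1.97 to -1.06) for Lag3 and -0.93 (-1.07 to -0.78) for Cd200. Genes free of opposite-strand exons, 5857 of them at a minimum of 50 counts over both libraries, had a median of -0.84 (quartiles -1.04 and -0.64). Genes covered for 90% or more by exons of the other strand had a median of 0.78. Over all 10020 genes at that count minimum the median was -0.72 relative to library totals and -0.26 after TMM scaling. The share of genes called lower was not computed at that minimum. When totals of the genes without opposite-strand exons were used as the scale, a choice made after the data were seen, only Lag3 was called (adjusted exact binomial p = 0.0046), at a log2 ratio of -0.73, against 21.2% of all genes. On that scale Ctla4, Pdcd1, Btla and Cd200 had log2 ratios of -0.21, -0.17, -0.05 and -0.16. Cd274 stood at -0.52 (-0.78 to -0.26) relative to library totals and at 0.25 on that scale, and Tigit at -0.87 (-1.46 to -0.31) and -0.10.

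**Figure D3:**
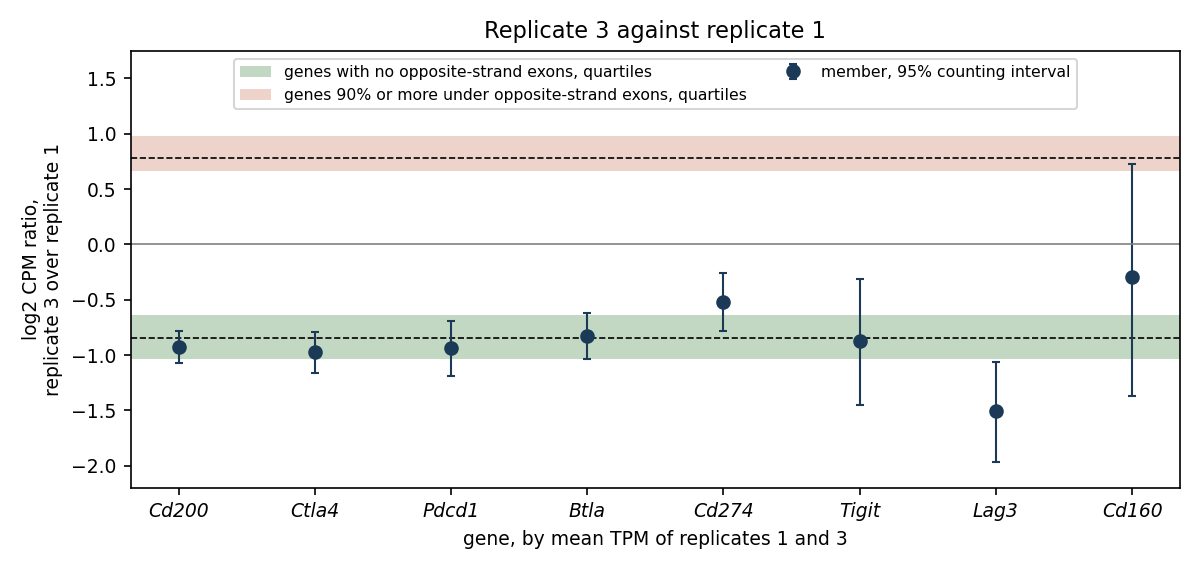
Log2 CPM ratio of replicate 3 to replicate 1 for 8 genes, with exact 95% counting intervals; Havcr2, with 1 count in each library, is not drawn. Bands are the quartiles of genes without opposite-strand exons (median -0.84) and of genes covered for 90% or more by them (median 0.78). Cd200, Ctla4, Pdcd1, Btla and Tigit lie within the lower band, Lag3 lies below it, and Cd274 and Cd160 lie above it.

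Replicate 2 was set against replicates 1 and 3 pooled by an exact binomial test over all 18775 genes with a count. None of the 9 genes passed, against 0.618% of genes called, and 860 genes had an unadjusted p under 0.05. Cd160 had 4 counts where 0.281 were expected (exact binomial p = 0.00052, adjusted 0.069), and Lag3 had 8 where 1.93 were expected (exact p = 0.0019, adjusted 0.17). In the other 10 of 11 settings the adjusted p of Lag3 was under the threshold, from 2.9e-16 upward. The adjusted p of Cd160 ran from 1.3e-12 to 1 over all settings in which it was tested. For Ctla4, Pdcd1, Btla, Cd200 and Cd274 the observed counts of 6, 3, 7, 17 and 4 stood beside 8.79, 5.01, 7.08, 14.3 and 4.11 expected, and Tigit had 0 beside 0.994. The test compares these libraries, not conditions.

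The wider pathway was read from lists of partner genes. At the 1 TPM mark, 6 of 13 ligand genes passed in all 3 libraries and 8 in replicates 1 and 3, with medians of 9.23 TPM in replicate 1 and 7.75 TPM in replicate 3. Beside Cd274 the highest were Hmgb1, a nuclear protein that TIM-3 can bind (94.3, 41.1 and 48.5 TPM in replicates 1, 2 and 3), and Lgals9, the gene of galectin-9 (48.5, 19.3 and 17.6 TPM). Havcr2 itself, for which both are described as ligands, was at the edge of detection. Fgl1, a liver-derived ligand of LAG-3, had no count. Among 12 costimulatory and counter receptors 10 passed in all 3 libraries and 11 in replicates 1 and 3, with medians of 42.0 TPM in replicate 1 and 17.1 TPM in replicate 3. The TNF receptor family gene Tnfrsf4 led them at 583, 333 and 235 TPM, followed by Tnfrsf18, 27.2% of whose exonic length is under opposite-strand exons, and the adhesion receptor Cd2 (155, 166 and 64.4 TPM). Cd226 stood at 58.7, 52.6 and 25.8 TPM, Icos at 55.0, 24.1 and 17.5 TPM and Cd28 at 34.3, 40.5 and 14.5 TPM.

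Other inhibitory receptors ranged from no count to the levels of Cd5 and Cd6. Only 5 of these 13 genes passed 1 TPM in all 3 libraries and 6 in replicates 1 and 3. Their medians were 0.421 and 0.152 TPM in those libraries, and Lair1, Klrg1, Lilrb4a and Pvrig had no count. Cd5 and Cd6, scavenger receptor family members of T cells, stood at 326, 99.8 and 142 TPM and at 178, 133 and 94.0 TPM. Cd72 stood at 130, 96.5 and 164 TPM with 41.6% opposite-strand cover. All 16 phosphatases and adaptors passed in replicates 1 and 3, with medians of 37.1 and 15.5 TPM there, and 14 passed in all 3 libraries. Ptpn6, the gene of SHP-1, was highest at 290, 206 and 129 TPM, with 6.96% opposite-strand cover, ahead of the kinase gene Csk and the PP2A scaffold gene Ppp2r1a. Of 11 genes of CTLA-4 and PD-1 trafficking, 9 passed in all 3 libraries and 11 in replicates 1 and 3 (medians 32.9 and 13.9 TPM), with Trat1 (119, 60.4 and 54.9 TPM), Ap2m1, a clathrin adaptor subunit, and Def6 highest. Of 18 transcription factors, 12 passed in all 3 libraries and 15 in replicates 1 and 3 (medians 32.3 and 15.4 TPM), led by Batf (198, 43.2 and 87.1 TPM), Tcf7 and Ikzf1. Among these factors Maf had no count and Prdm1 had 1, 0 and 1, both named after their values were seen. Between replicates 3 and 1, the exact binomial test on TMM-scaled totals called 16.3% of all genes lower in replicate 3. That share includes genes with few counts, and a share over genes of like count was not computed. The test called lower 12 of 16 phosphatase and adaptor genes, 10 of 17 transcription factor genes, 8 of 12 costimulatory genes, 5 of 11 trafficking genes, 2 of 12 ligand genes and 1 of 9 other inhibitory receptor genes. The costimulatory, trafficking and other inhibitory receptor lists had 1 gene each called higher. On totals of genes without opposite-strand exons, a scale chosen after the data were seen, the numbers called lower were 3, 2, 2, 0, 0 and 0 in the same order of lists.

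**Figure D4:**
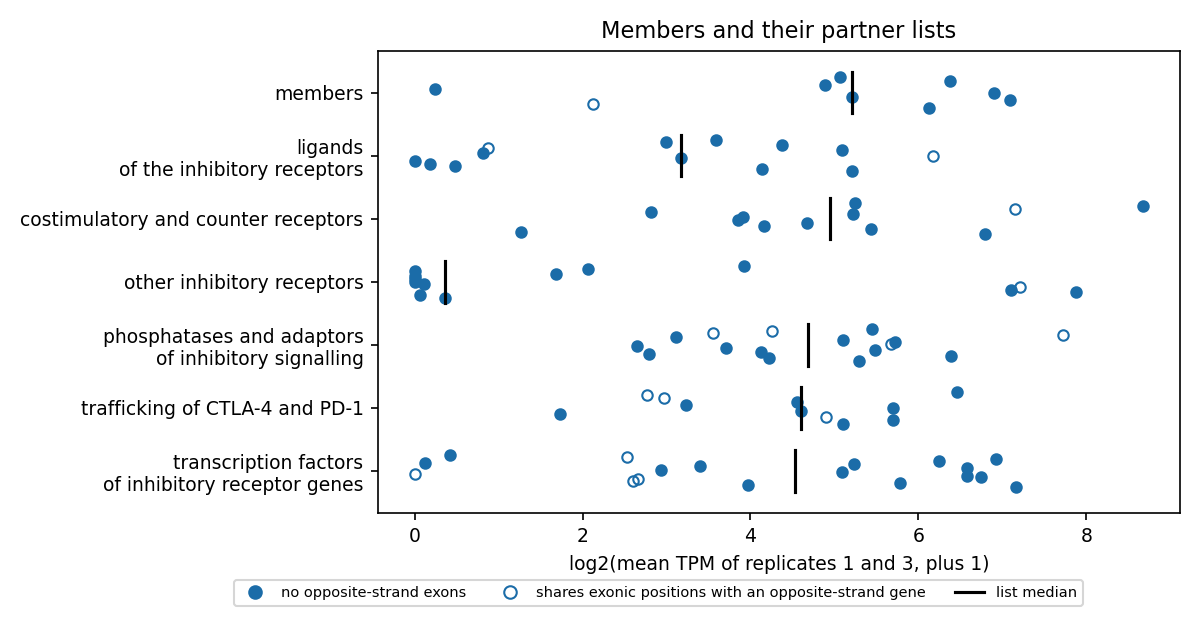
Each point is 1 gene at log2 of its mean TPM in replicates 1 and 3 plus 1, by list, with the list median as a bar; open points share exonic positions with a gene of the other strand. Havcr2 and Cd160 stand apart at the low end of the 9 genes, and the other inhibitory receptors include 4 genes with no count.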

How the data were processed

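RNA of 3 Th1 libraries was measured. The labels call the assay total RNA sequencing, while the linked library protocol is named PolyA+. The authors deposited raw counts of fragments for each gene, made with featureCounts 1.4.6-p4 on GENCODE M13 at strand setting 1, per the file headers; the library kit is not given in the sources used here. The authors' tables also give each gene's exonic length, another deposited value, from which TPM was computed here. The assembly is mm10 per the labels. No column of other samples was used (0). Symbols matched 50376 of 50600 identifiers; biotypes came from GENCODE M21. Opposite-strand exonic overlap was computed with bedtools 2.31.1.

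A single group leaves no contrast for a quasi-likelihood fit. Genes kept by filterByExpr in edgeR 4.0.16 were tested across all genes by chi-square on TMM-scaled totals (degrees of freedom 2), and all genes by exact binomial tests between libraries, with Benjamini-Hochberg adjustment at 0.05. DESeq2 1.42.0 gave alternative size factors. Simulated counts held counting error only, and changes were placed only in genes with more counts than Cd160 or Havcr2 had. On these counts the chi-square test over 7406 genes called 97% of genes changed 2-fold in replicate 3 and 0.361% of unchanged ones. The replicate 2 test over 17786 genes called 17% of 2-fold changes and 61% of 4-fold changes, so it misses many changes. Ratio intervals are Clopper-Pearson at 95%, and 3 counts stand for a count of 0. Named genes were the 9 genes, their pair partners and opposite-strand partners, and the 3 highest of each list by mean TPM of replicates 1 and 3, with the genes nearest to Cd200; others are neighbours, markers or list members at or near 0, named after their values were seen. The 9 genes, lists, tests and alternatives were chosen with earlier results of these data known. R 4.3.3, Python 3.11.15 and SciPy 1.17.1 were used. A marker gene is not reported here.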

Additional observations from a re-analysis of the deposited data

How the results depend on the processing

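The count of 7 genes at 1 TPM or more in every library ran from 6 to 8 over 9 alternatives. In replicate 2 a single count is worth more than any floor tried for these genes, so the floors act only through replicates 1 and 3 and show no stability there. The count of 6 genes that varied beyond counting error was 2 with TMM factors from genes without opposite-strand exons, 0 by the exact test of replicate 2, 1 by the exact test of replicate 3 against 1 on totals of genes without opposite-strand exons (added after the data were seen), and 1 to 3 when a replicate was left out. Leaving out a replicate also left fewer samples to differ, and beyond that the cause was not tested. DESeq2 size factors gave 5 of 7 (54.3% of all genes called), library totals 7 of 7 (88.4%), no filter 6 of 9 (30.6%) and the exact test of replicate 3 against 1 on TMM-scaled totals 5 of 9 (31.8%).

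As count ratios, not per length, the mean log2 ratios were 0.59 for Ctla4 to Cd28, 1.36 for Ctla4 to Icos, -0.0023 for Pdcd1 to Cd274, 4.02 for Btla to Tnfrsf14, -0.55 for Cd160 to Tnfrsf14, -1.66 for Tigit to Cd226, 7.35 for Cd200 to Cd200r1 and -0.87 for Pdcd1 to Ctla4; the shift is the ratio of the gene lengths. Pooled counts moved Tigit to Cd226 to -0.386. Of 41 alternatives for these ratios 32 moved them by less than 1 SD. Leaving out a replicate cannot move these mean ratios by 1 SD, whatever the data, so those alternatives show no stability. The 9 alternatives that moved a ratio further all used counts not per length or pooled counts. Of 81 alternatives for ranks 60 kept the rank; Lag3 ranked 5 with all libraries and 7 without replicate 2. Over genes without opposite-strand exons as the TPM sum, all 9 mean levels were higher, such as 385 TPM for Ctla4 and 535 TPM for Cd200. No paired analysis was possible because the libraries form 1 group. Replicate 2, with 50627 counts, limits every statement on Tigit, Havcr2 and Cd160 there.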
